A study of Mus musculus with 6 samples.

Results

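The 10 genes described here make long noncoding RNAs of the nucleus and of snoRNA production, and were chosen by name: Malat1, Neat1, Gas5, Snhg1, Snhg3, Snhg5, Snhg6, Snhg8, Snhg12 and Epb41l4aos. All 10 were found by NCBI gene ID among the 27179 genes of the deposited table. Their levels were measured by RNA sequencing of total RNA from LT-HSC, long-term stem cells of the bone marrow that renew the blood for life, sorted as Lin-Sca-1+c-Kit+CD48-CD150+ from adult C57BL/6 mice of 8 to 12 weeks. The Cko group was Prdm16cko/cko; Mx1-Cretg/+ and the WT group was Prdm16cko/cko; Mx1-Cre+/+, so both carried the conditional Prdm16 alleles and WT differed by lacking the Cre transgene. Prdm16 encodes a transcriptional regulator needed to maintain these cells. Mice of both groups received pIpC 5 times and were used 5 weeks later. pIpC is a double-stranded RNA that provokes interferon, and the interferon-responsive Mx1 promoter that drives Cre is active in many cell types, not in stem cells alone. The marrow of 5 mice was pooled for each genotype and sorted into 3 technical replicates. P-values therefore measure the spread between portions of 1 pool per genotype, not between animals.

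Small nucleolar RNAs (snoRNAs) guide chemical modification and processing of ribosomal and other RNAs. In mammals most are cut from introns of a host transcript, and the spliced exons of the host are a by-product that often carries premature stop codons and is destroyed by nonsense-mediated decay during translation. Gas5 and the Snhg (small nucleolar RNA host gene) genes are such hosts, and several begin with a terminal oligopyrimidine tract like that of ribosomal protein mRNAs, which ties translation to growth signals. Malat1 and Neat1 host no snoRNA: Malat1 RNA concentrates in nuclear speckles, the stores of splicing factors, while the long Neat1 RNA is the scaffold of paraspeckles, nuclear bodies that hold RNA-binding proteins and edited RNAs.

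Malat1 and Neat1 were neighbours on the minus strand of chromosome 19 in GENCODE M21 (GRCm38, the assembly that mm10 names), Malat1 at chr19:5795690-5802672 and Neat1 at chr19:5824708-5845478, 22035 bases apart. Both long transcripts lack a usual poly(A) tail and end in an RNA triple helix made of U-rich tracts and an A-rich tract after RNase P has cut downstream. The ends are shown because they set which library types can capture these RNAs, and the capture method is not given in the sources used here. Each line gives 100 bases, 5′ to 3′ in the sense of the transcript, with U-rich and A-rich letters in capitals (Neat1 chr19:5824708-5824807, Malat1 chr19:5795982-5796081, both minus strand). In Malat1 the run of A just before the last capitals was left in lower case. The Malat1 line ends at base 6691 of the annotated transcript of 6983 bases, short of the end of its span.
Neat1: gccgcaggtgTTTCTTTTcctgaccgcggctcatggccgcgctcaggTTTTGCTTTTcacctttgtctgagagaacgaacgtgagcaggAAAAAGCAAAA
Malat1: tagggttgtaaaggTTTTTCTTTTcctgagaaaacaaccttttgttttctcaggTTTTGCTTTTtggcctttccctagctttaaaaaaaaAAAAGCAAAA

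The 8 host genes held 28 annotated snoRNA loci, 9 of them in Gas5, 8 in Snhg1, 4 in Snhg12, 2 each in Snhg3 and Snhg5, and 1 each in Snhg6, Snhg8 and Epb41l4aos. Gas5 lay at chr1:161034422-161038539 (plus), Snhg1 at chr19:8723475-8726443 (plus) and Snhg12 at chr4:132308623-132311024 (plus). Snhg3 lay at chr4:132348014-132353686 (minus), Snhg5 at chr9:88521050-88522929 (minus), Snhg6 at chr1:9941959-9944118 (minus) and Snhg8 at chr3:123507552-123508404 (minus). The sequences are those of Snord47 in Gas5, the snoRNA inside a member with the most reads, and of the Snora73a and Snora73b copies of Snhg3, whose near identity bears on the read counts given later. Capitals mark the C box letters TGATG and the D box letters CTGA of the C/D snoRNA Snord47. The letters TGATG stand there 2 times, end to end. Capitals also mark the ACA near the 3′ end of the H/ACA snoRNAs (GENCODE M21: chr1:161038082-161038158 plus, chr4:132352775-132352979 minus, chr4:132352322-132352526 minus).
Snord47: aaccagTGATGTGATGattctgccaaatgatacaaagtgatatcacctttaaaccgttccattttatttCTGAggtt
Snora73a: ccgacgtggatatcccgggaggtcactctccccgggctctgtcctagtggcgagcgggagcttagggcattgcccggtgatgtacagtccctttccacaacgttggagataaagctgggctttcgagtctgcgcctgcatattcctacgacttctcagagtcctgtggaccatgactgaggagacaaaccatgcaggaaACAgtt
Snora73b: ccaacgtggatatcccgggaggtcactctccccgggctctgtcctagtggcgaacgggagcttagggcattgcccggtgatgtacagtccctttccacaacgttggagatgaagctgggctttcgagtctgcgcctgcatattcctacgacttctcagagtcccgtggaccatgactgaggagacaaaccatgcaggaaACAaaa
Counted from 1 at the 5′ end, Snora73a and Snora73b differed at 7 of 205 bases, as G3A, G54A, A111G, T164C, G203A, T204A and T205A.

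RefSeq promoters (GRCm38.p6) were at hand for 8 starts of 7 members, 2 of them of Gas5. A run of at least 5 pyrimidines (C or T) across the annotated start, the letters a terminal oligopyrimidine tract would need, was found at 3 of the 8 starts, those of Snhg12, Snhg8 and the downstream Gas5 start, and at 10.1% of 32851 promoters in the table. The letters TATAA stood within 50 bases before the start on either strand in 5 of the 8, against 6.36% of all promoters. The 3 starts with a run are shown from 50 bases before the annotated start to 50 bases from it, with the pyrimidine run and a sense TATAA in capitals (chr1:161035116-161035215 plus, chr3:123508287-123508386 minus, chr4:132308628-132308727 plus). A match describes letters and not a working element.
Gas5: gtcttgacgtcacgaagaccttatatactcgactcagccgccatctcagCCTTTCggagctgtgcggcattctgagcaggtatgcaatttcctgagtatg
Snhg8: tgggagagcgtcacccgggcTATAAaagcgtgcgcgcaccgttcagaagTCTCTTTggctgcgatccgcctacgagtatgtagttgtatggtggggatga
Snhg12: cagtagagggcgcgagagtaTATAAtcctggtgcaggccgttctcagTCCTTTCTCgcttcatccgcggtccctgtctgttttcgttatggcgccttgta

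The 6 libraries held 36747729 to 43743795 reads. Values are given as CPM, the recovered reads scaled by the authors' effective library size. Prdm16 stood at 8.74, 9.04 and 14.7 CPM in the Cko libraries, against 40.3, 50.5 and 31.7 CPM in the WT libraries, so the targeted gene was lower in every library labelled Cko (log2 difference -1.93, SE 0.27, limma with Benjamini-Hochberg adjusted p 0.0083; 0.0508 without Cko replicate 2). All 12 of 12 LT-HSC markers were tested, 0 were called, and their summed level was 3010 to 3290 CPM in Cko and 2990 to 3230 CPM in WT. Of the 12, 10 had a log2 difference above 0 and 2 (16.7%) below, where 49.4% of all tested genes were below. For 4 of the 12 (33.3%) every Cko library lay above every WT library, against 8.52% of all tested genes. Mecom (0.43, limma adjusted p 0.141) and Ctnnal1 (0.54, limma adjusted p 0.259) were among these 4. Markers of other cells differed, where 0.407% of all tested genes were called higher in Cko. Of 12 neutrophil-lineage markers, all tested, 10 were called higher in Cko (summed 1110 to 1300 CPM in Cko, 304 to 322 CPM in WT). Of 9 basophil, mast cell and eosinophil markers 8 were tested and 6 called higher (598 to 691 CPM in Cko, 13.8 to 18.1 CPM in WT). Of these 9, 4 had 0 reads in every WT library, the eosinophil peroxidase gene Epx and the mast cell protease gene Prss34 included. Of 6 B and plasma cell markers 1, Igkc, was higher (230 to 245 CPM in Cko, 59.1 to 66.1 CPM in WT), with Igkc at 0 reads in every WT library. Of 5 stromal and endothelial markers 2 were tested and 1, Cxcl12, was higher (14.7 to 20.6 CPM in Cko, 1.35 to 3.74 CPM in WT). Only 3 of 6 macrophage, 4 of 6 erythroid, and 2 of 4 T and NK cell markers were tested, and none of those was called. The summed macrophage markers (17.1 to 26.4 CPM in Cko, 4.73 to 10.1 CPM in WT) and erythroid markers (35.9 to 52.2 CPM in Cko, 11.8 to 29.8 CPM in WT) did not overlap between the groups, and those of T and NK cells did (91.2 to 112 CPM in Cko, 74.8 to 101 CPM in WT).

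Neat1, the paraspeckle scaffold, fell in Cko. Its level was 111.4, 118.2 and 123.1 CPM in the Cko libraries, against 160.4, 197.1 and 179.1 CPM in the WT libraries. Every Cko library lay below every WT library, and the Cko libraries lay closer together. The mean was 117.6 ± 5.85 CPM in Cko and 178.9 ± 18.4 CPM in WT (SD, n = 3 each), so that the mean fell by 34.3%. The log2 difference was -0.60 (SE 0.11, 95% interval -0.84 to -0.36), with a limma adjusted p of 0.0364 by the Benjamini-Hochberg method over the 13018 genes tested.

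Neat1 was the 1 member called among 9 tested, against 0.292% of all tested genes called lower and 0.407% called higher. It was also the 1 called of 489 tested long noncoding RNA genes (0 higher, 1 lower; median log2 difference -0.09). The difference kept its size when single libraries were left out, between -0.68 and -0.53, but the call did not hold: the adjusted p was 0.143, 0.130 and 0.112 without Cko replicate 1, 2 or 3, 0.147 without WT replicate 2, 0.118 without WT replicate 3 and 0.0278 without WT replicate 1. In these bulk libraries fewer cells with the RNA and less RNA per cell cannot be told apart. The marker sums given above for neutrophil-lineage, basophil and eosinophil, B and plasma, stromal and endothelial, macrophage and erythroid cells also stood apart between the groups, and their part in the Neat1 difference was not tested.

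**Figure D1:**
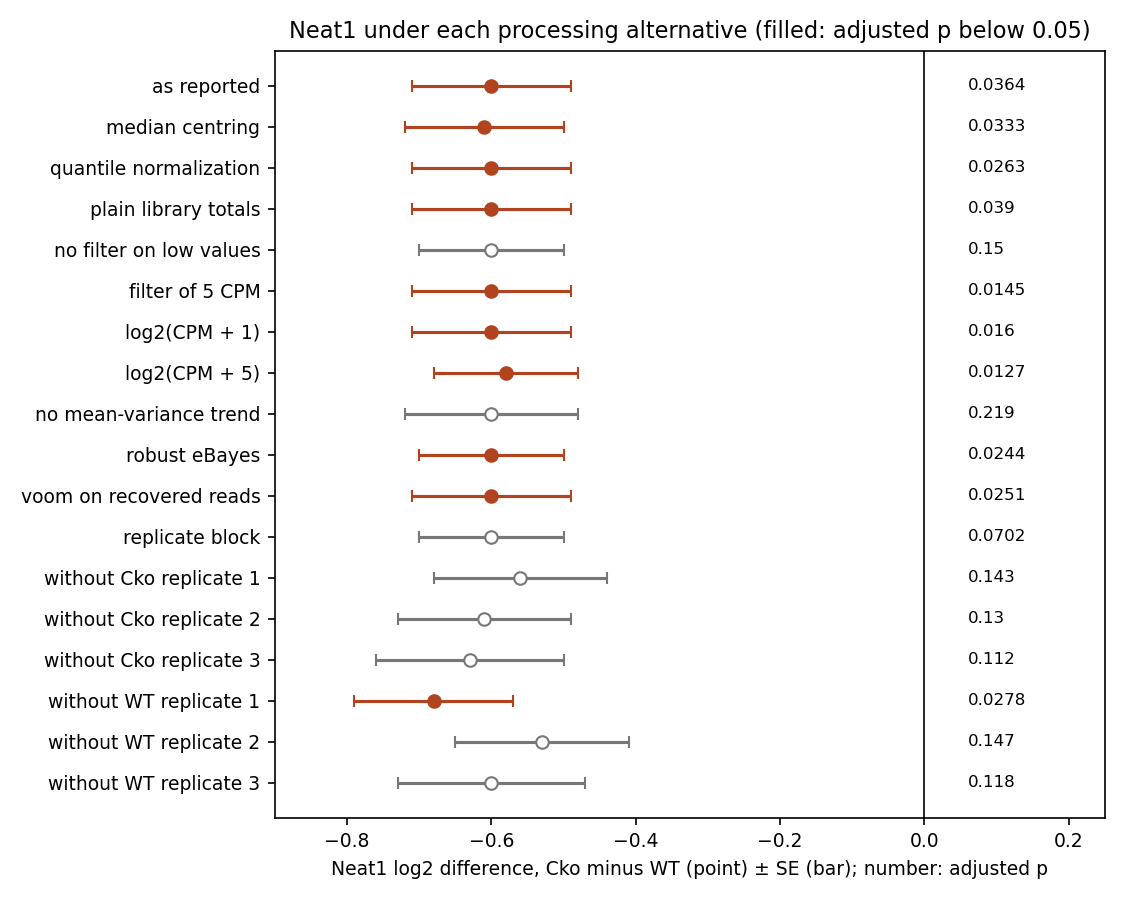
Neat1 log2 difference, Cko minus WT (x axis, point ± SE), as reported and under each of 17 processing alternatives, with the adjusted p printed at the right and filled points where it is below 0.05. The difference stays between -0.68 and -0.53 throughout, while the call is kept under 9 of the 17.

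The Neat1 reads could not be divided between its isoforms. The annotation held a short transcript of 3004 bases and a long one of 20771 bases, which share the 5′ end, and paraspeckles need the long one. Spread over the long transcript the level was 5.66 CPM per kb in Cko and 8.61 CPM per kb in WT, and over the short one 39.1 CPM per kb in Cko and 59.5 CPM per kb in WT.

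**Figure D2:**
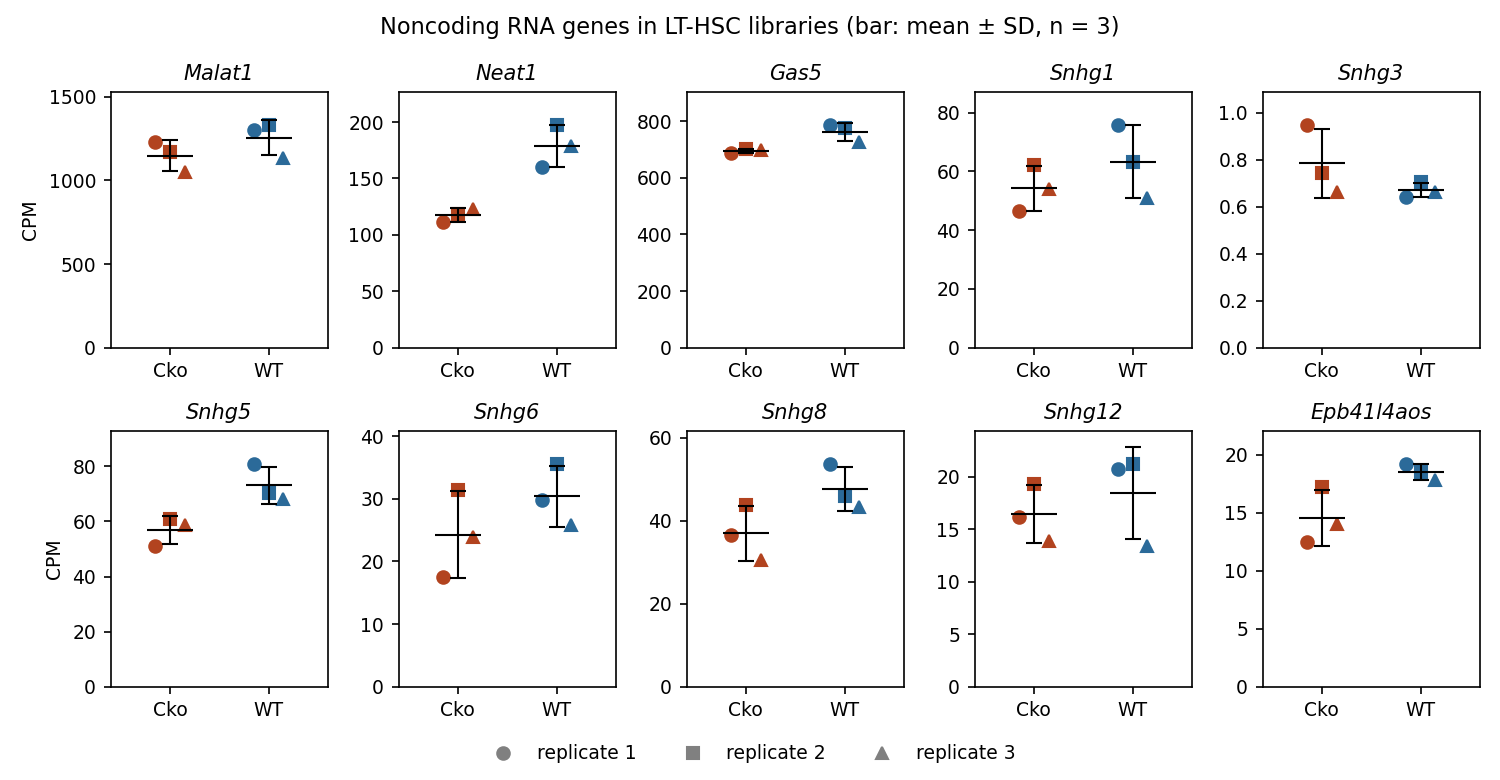
Level of each of the 10 genes in CPM (y axis, from 0), with 3 Cko libraries on the left and 3 WT libraries on the right of each panel, symbols for the replicate number, and bars for mean ± SD. Neat1, Gas5, Snhg5 and Epb41l4aos have every Cko library below every WT library, and Neat1 has the widest gap on the log2 scale.

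Malat1 was the most abundant member by reads, with 52.0% of the reads of the 10 genes, and ranked 35 by mean level among the 13018 tested genes. It stood at 1230, 1167 and 1049 CPM in the Cko libraries, against 1299, 1329 and 1134 CPM in the WT libraries. The groups overlapped, since WT replicate 3 lay below 2 of the Cko libraries. Malat1 averaged 1149 ± 91.7 CPM in Cko and 1254 ± 105 CPM in WT (SD, n = 3 each), a log2 difference of -0.13 (SE 0.07, 95% interval -0.29 to 0.04, limma adjusted p 0.596). It was -0.06 without Cko replicate 3, -0.08 without WT replicate 2 and -0.20 without WT replicate 3. The interval leaves room for a fall of up to 0.29 on the log2 scale. An antisense model without a known product, Gm37376, overlapped Malat1 by 453 exon bases, and the strand setting of the counting is not given in the sources used here, so its reads and those of Malat1 cannot be told apart.

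Neat1 was also lower relative to its neighbour. The ratio of Neat1 to Malat1 was 0.0906, 0.101 and 0.117 in the Cko libraries, against 0.123, 0.148 and 0.158 in the WT libraries. Every Cko ratio lay below every WT ratio, and in both groups replicate 1 had the lowest ratio and replicate 3 the highest. The difference between the mean log2 ratios was -0.48, with a two-sided exact permutation p of 0.1, the smallest that 3 libraries against 3 allow. Nearby on chromosome 19, Ltbp3 had a log2 difference of 0.49, Tigd3 0.32, Dpf2 0.26, Slc25a45 0.01 and Frmd8 -0.18, and none of these was called (limma adjusted p 0.345 to 0.987).

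Gas5, the host of 9 snoRNA loci and a transcript known to build up when cells stop growing, was the second most abundant member by reads, with 31.7%. Its level was 688.2, 700.0 and 697.2 CPM in the Cko libraries, against 785.3, 774.6 and 727.3 CPM in the WT libraries. The Cko libraries lay nearly level with each other and all below WT, with WT replicate 3 the nearest. Gas5 averaged 695.1 ± 6.17 CPM in Cko and 762.4 ± 30.9 CPM in WT (SD, n = 3 each), a log2 difference of -0.13 (SE 0.05, 95% interval -0.25 to -0.01), and it was not called (limma adjusted p 0.428). The ratio of Malat1 to Gas5 averaged 1.65 ± 0.14 in Cko and 1.64 ± 0.078 in WT (two-sided exact permutation p 0.9, smallest possible 0.1). Against Gas5, too, Neat1 was lower in every Cko library, at 0.162, 0.169 and 0.177 of the Gas5 level, against 0.204, 0.254 and 0.246 in WT (exact permutation p 0.1).

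Among the smaller hosts, Snhg5, which holds Snord50a and Snord50b, stood at 51.11, 60.75 and 58.87 CPM in the Cko libraries, against 80.74, 70.45 and 68.15 CPM in the WT libraries. All Cko libraries were below all WT libraries, with Cko replicate 1 the lowest and WT replicate 1 the highest. The log2 difference was -0.36 (SE 0.14, 95% interval -0.67 to -0.06), and it was not called (limma adjusted p 0.39). Epb41l4aos, a short noncoding gene with 1 snoRNA locus, had 12.45, 17.21 and 14.03 CPM in the Cko libraries, against 19.18, 18.55 and 17.82 CPM in the WT libraries. The groups did not overlap, but Cko replicate 2 came close to WT replicate 3 (log2 difference -0.36, SE 0.22, limma adjusted p 0.609).

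Snhg8, the host of Snora24, had 36.55, 43.86 and 30.51 CPM in the Cko libraries, against 53.60, 45.90 and 43.43 CPM in the WT libraries. Cko replicate 2 lay just above WT replicate 3, the 1 place where the groups crossed (log2 difference -0.38, SE 0.18, limma adjusted p 0.506; -0.24 without Cko replicate 3). Snhg6, the host of Snord87, had 17.53, 31.45 and 23.87 CPM in the Cko libraries, against 29.79, 35.48 and 25.84 CPM in the WT libraries. The groups overlapped and Cko replicate 1 was far below the rest (log2 difference -0.35, SE 0.24, limma adjusted p 0.647). The Snhg6 difference was -0.14 without Cko replicate 1, -0.56 without Cko replicate 2 and -0.23 without WT replicate 2. Part of Snhg6, 127 exon bases, lies opposite the Mcmdc2 gene, and without a stated strand setting reads there cannot be assigned.

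Snhg1, with 8 snoRNA loci, had 46.56, 62.06 and 53.99 CPM in the Cko libraries, against 75.70, 63.29 and 51.13 CPM in the WT libraries. WT spanned the whole Cko range except Cko replicate 1, so the groups overlapped (log2 difference -0.22, SE 0.18, limma adjusted p 0.714). The Snhg1 difference was -0.11 without Cko replicate 1, -0.08 without WT replicate 1 and -0.36 without WT replicate 3. Snhg12, with 4 loci, had 16.21, 19.29 and 13.85 CPM in the Cko libraries, against 20.79, 21.19 and 13.44 CPM in the WT libraries. Replicate 3 was lowest in both groups, and WT replicate 3 was the lowest of the 6 (log2 difference -0.15, SE 0.26, limma adjusted p 0.886). Leaving out single libraries gave Snhg12 differences from -0.36 without WT replicate 3 and -0.27 without Cko replicate 2 up to -0.05 without WT replicate 1, -0.04 without WT replicate 2 and -0.03 without Cko replicate 3.

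Snhg3 was the least counted member, with 35, 32 and 29 reads in the Cko libraries, against 26, 26 and 29 reads in the WT libraries. That is 0.785 ± 0.146 CPM in Cko and 0.671 ± 0.0314 CPM in WT (SD, n = 3 each), under the minimum of 1 CPM in at least 3 libraries, so it was not tested. The lowest Cko library lay within the WT range. Snhg3 shares its strand and 107 exon bases with Rcc1, the guanine exchange factor of Ran, which averaged 116.5 ± 9.92 CPM in Cko and 93.49 ± 12.4 CPM in WT (log2 difference 0.32, limma adjusted p 0.419). Snhg3 also has 311 exon bases opposite Gm17300, a noncoding gene on the other strand. How reads over such shared bases were counted is not given in the sources used here.

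All 9 tested members had a log2 difference below 0, where 49.4% of all tested genes did, and their median was -0.35, against 0.003 over all tested genes. Of these 9, 1 was called lower, 0 were called higher and 8 were not called. Every Cko library lay below every WT library for 4 of the 9, Neat1, Gas5, Snhg5 and Epb41l4aos, against 8.01% of all tested genes. Among the 489 tested long noncoding RNA genes 58.5% had a log2 difference below 0. Of them 11.7% had every Cko library below every WT library, and 4.91% had every Cko library above. Among 11 further noncoding snoRNA hosts these shares were equal, at 27.3% below and 27.3% above. The unadjusted limma p was below 0.05 for 3 of the 9, against 10.3% of all tested genes. These 9 values are not 9 independent observations, because the members moved together from library to library. Over the 6 libraries all 36 pairs of tested members had a positive Pearson correlation of log2 CPM (median 0.74), and the 21 pairs among the 7 tested hosts ran from 0.46 to 0.92. The 6 points of each pair share library, depth scaling and the genotype split, so these correlations are a description only.

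The shared pattern can be read by library. Cko replicate 1 was the lowest Cko library for 6 of the 9 and Cko replicate 2 the highest for 7. WT replicate 3 was the lowest WT library for 8 of the 9 and the highest for 0. The 10 genes took 0.222%, 0.222% and 0.206% of all reads in the Cko libraries, against 0.251%, 0.256% and 0.225% in the WT libraries, so WT replicate 3 lay close to the Cko libraries. Malat1 and Gas5 made up 83.7% of those reads and largely set that share.

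**Figure D3:**
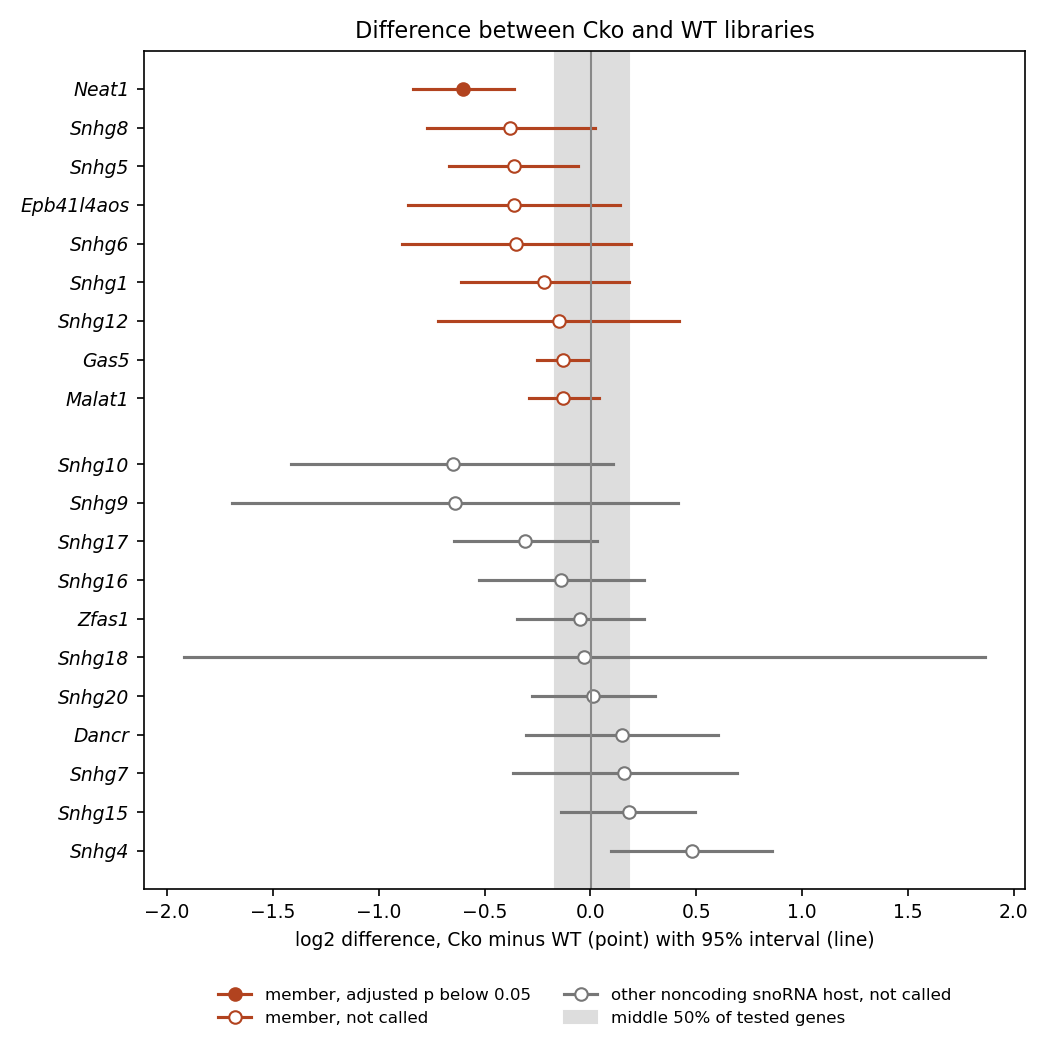
Log2 difference, Cko minus WT (x axis), with its 95% interval for the 9 tested members (upper block) and 11 other noncoding snoRNA host genes (lower block), beside the middle 50% of tested genes. All 9 members lie below 0 and the 11 other hosts lie on both sides, and the interval of Neat1 is farthest from 0.

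Per kilobase of annotated exon, Gas5 and Malat1 stood far above the other members. Gas5 had 185 ± 1.64 CPM per kb in Cko and 203 ± 8.21 CPM per kb in WT, and Malat1 had 165 ± 13.1 CPM per kb in Cko and 180 ± 15.0 CPM per kb in WT (SD, n = 3 each), and their ranges did not overlap within either group. Below them came Snhg8 (43.3 in Cko, 55.9 in WT), Epb41l4aos (33.9 in Cko, 43.1 in WT), Snhg5 (32.9 in Cko, 42.3 in WT), Snhg6 (21.2 in Cko, 26.5 in WT) and Snhg1 (18.3 in Cko, 21.3 in WT), all in CPM per kb. Epb41l4aos and Snhg5 overlapped in both groups, as did Snhg6 and Snhg1, and Snhg8 overlapped Epb41l4aos in Cko. Snhg12 (6.85 in Cko, 7.69 in WT) and Neat1 (5.66 in Cko, 8.61 in WT) overlapped in both groups, in CPM per kb, with Neat1 the lower of the pair by mean in Cko and the higher in WT. Snhg3 was last, at 0.797 CPM per kb in Cko and 0.681 CPM per kb in WT. The order depends on the gene model: over the longest RefSeq-linked transcript in place of all exons, Snhg1 came next after Gas5 and Malat1, at 89.6 CPM per kb in Cko and 105 CPM per kb in WT.

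The spread between libraries was above counting error for each member named here. The coefficient of variation of Gas5 was 0.887% in Cko and 4.05% in WT, where counting alone gives 0.591% in Cko and 0.571% in WT. Malat1 varied by 7.98% in Cko and 8.35% in WT, where counting alone gives 0.461% in Cko and 0.446% in WT. Neat1 varied by 4.98% in Cko and 10.3% in WT. Snhg6 varied by 28.7% in Cko and 16.0% in WT, and Snhg12 by 16.6% in Cko and 23.6% in WT. Set against tested genes within 0.5 log2 units of its own level, Gas5 was steady, with a residual SD of 0.043 log2 units that 88.9% of 135 such genes exceeded. Epb41l4aos was steady as well by this measure, which joins both groups (0.171 log2 units, exceeded by 89.7%). Its coefficient of variation was 16.7% in Cko and 3.68% in WT, so the WT libraries were the steadier. Malat1 was among the more variable genes of its level, with 0.120 log2 units exceeded by 16.7% of 48, and so were Snhg1 (0.248, exceeded by 29.1%) and Snhg6 (0.339, exceeded by 30.7%).

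**Figure D4:**
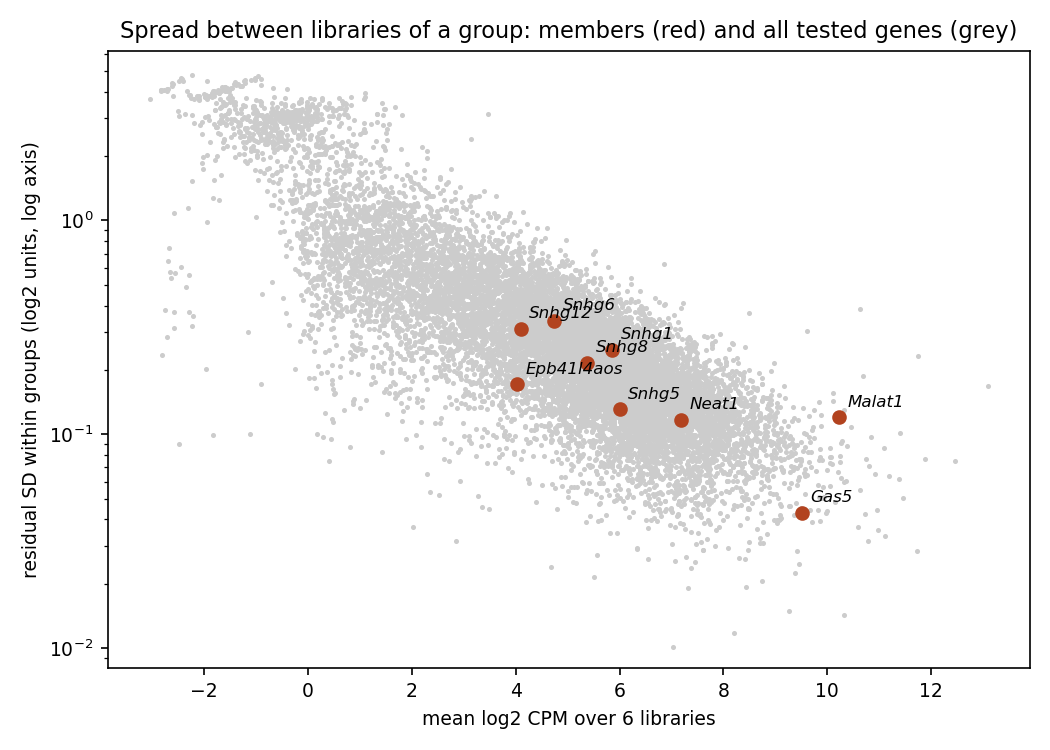
Residual SD within groups in log2 units (y axis, log scale) against mean log2 CPM over the 6 libraries (x axis), for the 9 tested members in red and all 13018 tested genes in grey. Gas5 at 0.043 lies low for its level and Malat1 at 0.120 lies high for its level.

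Reads were also listed in rows of some of the snoRNAs, although a standard library recovers few RNAs this short. The snoRNAs of Gas5, Snhg1, Snhg8 and Snhg12 lie within an exon of some annotated host transcript. Reads in those rows can come from the host RNA and cannot be told apart from the snoRNA. Of the 28 loci 10 had a row of their own, 6 of those were tested and 0 were called. Snord47 inside Gas5 had 289, 371 and 359 reads in the Cko libraries, against 312, 353 and 415 reads in the WT libraries. The groups overlapped (log2 difference -0.11, SE 0.28, limma adjusted p 0.927). Snord22 inside Snhg1 had 126, 210 and 163 reads in the Cko libraries, against 290, 189 and 209 reads in the WT libraries. Here too the groups overlapped, with WT replicate 1 the highest (log2 difference -0.50, SE 0.40, limma adjusted p 0.70).

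Snora73a, one of the near-identical H/ACA copies printed above, was higher in every Cko library, while the tested hosts among the members had differences below 0. Its own host Snhg3, not tested, and the overlapping Rcc1 also had the higher mean in Cko. It had 121, 130 and 99 reads in the Cko libraries, against 70, 40 and 72 reads in the WT libraries. The groups did not overlap, as for 8.52% of all tested genes with Cko above WT, with a log2 difference of 0.95 (SE 0.59) that was not called (limma adjusted p 0.609). Snora73b was listed at 0 reads in all 6 libraries, as was Snora24 of Snhg8. Reads of the Snora73 copies are uncertain, because the handling of reads that fit both copies is not given in the sources used here. Snord87, Snora61 and Snord99 were tested at about 1 CPM and their groups overlapped.

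Other snoRNA hosts were examined to see how far the members stood apart. Of 13 further noncoding hosts 11 were tested, 0 were called, 5 had a log2 difference above 0 and 6 below, and the median was -0.03. Snhg4 averaged 47.49 ± 5.77 CPM in Cko and 34.10 ± 4.38 CPM in WT (log2 difference 0.48, limma adjusted p 0.357), and Snhg17 averaged 39.66 ± 3.43 CPM in Cko and 49.05 ± 3.97 CPM in WT (-0.31, limma adjusted p 0.52). Snhg10 averaged 5.25 ± 0.930 CPM in Cko and 8.29 ± 1.68 CPM in WT (-0.65, limma adjusted p 0.552).

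In the annotation, genes were sought with a same-strand snoRNA of Snord or Snora name inside their span. Epb41l4aos, whose snoRNA has another name, was left out, and the other member hosts were included. There were 80 such genes, and 76 were tested. Of these 1 was called higher, where 0.407% of all tested genes were, and 0 were called lower, where 0.292% were. A log2 difference below 0 was seen for 60.5%, against 49.4% of all tested genes, and the median was -0.06. The gene called was Hspa8, which encodes a chaperone made without stress and carries snoRNAs in its introns (log2 difference 0.39, SE 0.05, limma adjusted p 0.0051). This call was lost with no filter on low values (adjusted p 0.232) and with no mean-variance trend (adjusted p 0.294). Unlike the members it encodes a protein. The next by adjusted p were Eif4a2, a translation initiation helicase (-0.33, limma adjusted p 0.162), and Rpl10, a protein of the large ribosomal subunit (-0.17, limma adjusted p 0.388). Of 24 ribosomal protein hosts 0 were called and 19 (79.2%, against 49.4% of all tested genes) were below 0, with a median of -0.08, and 4.17% had every Cko library below every WT library. Among the 37 snoRNA genes tested in all, 0 were called.

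Of 14 other well known noncoding RNA genes 8 were tested and 0 were called, with a median log2 difference of 0.12. Tug1, a widely expressed nuclear and cytoplasmic RNA, averaged 153.6 ± 23.7 CPM in Cko and 130.2 ± 14.7 CPM in WT (log2 difference 0.23, limma adjusted p 0.578). Mir17hg, the host of the miR-17 cluster, averaged 12.7 ± 2.21 CPM in Cko and 10.1 ± 5.68 CPM in WT (0.52, limma adjusted p 0.736).

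No gene of the lists of proteins that act on these RNAs was called, where 0.699% of all tested genes were called in either direction, so a count of 0 in lists of 12 to 19 genes is near that share. Of 19 tested paraspeckle proteins 0 were called, 13 had a log2 difference above 0 and 6 below, and the median was 0.03. For 4 of the 19 (21.1%) every Cko library lay below every WT library, against 8.01% of all tested genes. The reverse held for 1 (5.26%, against 8.52% of all tested genes). Hnrnpa1 was among the 4 (218.8 ± 6.86 CPM in Cko, 244.2 ± 3.79 CPM in WT, log2 difference -0.16, limma adjusted p 0.507). Zc3h6 had 13.1 ± 3.70 CPM in Cko and 22.7 ± 5.50 CPM in WT (log2 difference -0.81, limma adjusted p 0.359). Rbmx, an RNA-binding protein, had 169.6 ± 11.7 CPM in Cko and 143.4 ± 16.7 CPM in WT (0.25, limma adjusted p 0.487). Of 13 tested nuclear speckle proteins 0 were called (median 0.02), the smallest adjusted p being that of the splicing factor Srsf1 (0.26, limma adjusted p 0.255). Of 19 tested snoRNP core proteins and assembly factors 0 were called (median 0.06). Of these, 14 had a log2 difference above 0 and 5 (26.3%) below, where 49.4% of all tested genes were below. For 3 of the 19 (15.8%) every Cko library lay above every WT library, against 8.52% of all tested genes. The reverse held for 1 (5.26%, against 8.01% of all tested genes), the assembly factor Ruvbl2 (-0.22, limma adjusted p 0.469). Dkc1, the pseudouridine synthase of H/ACA snoRNPs, averaged 346.6 ± 8.59 CPM in Cko and 290.6 ± 20.0 CPM in WT (0.26, limma adjusted p 0.263). Of 17 nonsense-mediated decay and exon junction factors 0 were called (median 0.04; Upf3b 0.31, limma adjusted p 0.55). Of 12 factors for the 3′ end of Malat1 0 were called (median 0.04), among them Pop1, a subunit of RNase P (0.74, limma adjusted p 0.381).

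The genes whose levels followed the 3 largest members most closely over the 6 libraries were sought among 6508 genes at or above the median level. For Neat1 these were Zbed5 (Pearson r 0.993), Cd24a (0.979) and Sil1 (0.978), and 30 genes exceeded 0.95. Cd24a, which encodes a surface glycoprotein of many blood cells, averaged 211.8 CPM in Cko and 291.9 CPM in WT (log2 difference -0.46, limma adjusted p 0.0651). Gas5 was followed by Psmd10 (0.994), Kdelr1 (0.987) and Sesn1 (0.986), with 27 genes over 0.95, and Malat1 by Tuba8 (0.976), Akap8 (0.973) and Ezh1 (0.972), with 9. With 6 libraries and this many genes searched, high values of r are found for many genes, so the names are a description only.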

How the data were processed

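LT-HSC RNA of 6 libraries, 3 Cko and 3 WT, was sequenced. The authors deposited 1 table of log2 values per gene and library. The submitters' processing notes name FastQC, HISAT2, featureCounts, limma and mm10, without versions, strand setting or treatment of multiply mapped reads. The deposited log2 values proved to be log2 CPM computed on reads plus 0.5, and undoing this gave whole reads for 100.0% of values within 0.01.

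The 13018 genes that reached 1 CPM in 3 or more libraries were fitted on the deposited log2 values with limma 3.58.1 in R 4.3.3 (lmFit, eBayes with a mean-variance trend, no block). Calls were made at a Benjamini-Hochberg adjusted p below 0.05. Differences are Cko minus WT on this log2 scale, which understates those of very low genes. The code was tested on simulated data. Counting errors cover counting alone, as no molecular identifiers are known and reads need not be separate molecules. Gene IDs were named from RefSeq GRCm38.p6 (25275 matched, 1904 not). Spans, exon lengths and snoRNA loci came from GENCODE M21.

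The members and lists were chosen with earlier results of these data known. Genes named besides members were Prdm16, up to 3 per list by smallest adjusted p, the 3 most like Malat1, Neat1 and Gas5, and snoRNAs inside members; the chromosome 19 neighbours and Rcc1 were named for their position. Other scalings, filters, pseudocounts, variance models, leaving out each library and a block for the replicate number were tried.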

Additional observations from a re-analysis of the deposited data

How the results depend on the processing

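Under the 17 alternatives all 153 log2 differences of the 9 tested members stayed below 0, and no member other than Neat1 was called (adjusted p 0.344 to 0.986). Sizes were less steady when 1 library was left out. The differences of Snhg6 (-0.56 to -0.14), Snhg1 (-0.36 to -0.08), Snhg12 (-0.36 to -0.03), Malat1 (-0.20 to -0.06) and Snhg8 (-0.51 to -0.24) moved by over 1.5 times from the value as reported. Those of Epb41l4aos (-0.49 to -0.25), Gas5 (-0.17 to -0.11) and Snhg5 (-0.41 to -0.29) moved by less than that. Neat1 was called under 9 of the 17 and not called under 8. Its log2 difference was -0.60 with no filter on low values (adjusted p 0.15), with no mean-variance trend (0.219) and with a replicate block (0.0702). Leaving out 1 library at a time gave -0.68 to -0.53, and the call was lost in 5 of 6 such fits; a fit with 2 libraries in a group has fewer degrees of freedom. The cause of the other losses was not tested.

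As reported 53 genes were higher and 38 lower in Cko. No filter on low values gave 19 higher and 14 lower, log2(CPM + 1) gave 105 higher and 59 lower, and log2(CPM + 5) gave 104 higher and 64 lower. Without the mean-variance trend 15 were lower. Leaving out 1 library gave 20 to 66 higher and 22 to 31 lower. The calls of Hspa8 and Prdm16 were lost with no filter (adjusted p 0.232 for Hspa8, 0.0599 for Prdm16) and with no trend (0.294 for Hspa8, 0.0967 for Prdm16).

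With the replicate number as a block, 44 genes were higher and 23 lower. Deviations from the group means correlated by -0.01, -0.021 and 0.02 for replicates 1, 2 and 3 over the tested genes. These values show no pairing by number across the genes as a whole. They cannot speak to one that touches few genes. The libraries are portions of 1 pool per genotype, which limits what any p says about mice, and at the depth used counting error was below the spread between libraries for the 9 tested members in both groups, by little for Epb41l4aos in WT (3.66% against 3.68%).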
